A study of Mus musculus with 2 samples.

Results

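Imprinted growth genes were examined in femoral marrow of mice aged 8 days, through every array probe annotated to any of 10 chosen genes. Genes expressed from the maternal copy were Igf2r, Meg3, Cdkn1c, Grb10 and H19, and genes expressed from the paternal copy were Igf2, Dlk1, Peg3, Mest and Plagl1. The annotation used here names 22 probes for 9 of the 10 genes, out of 45281 probes and 19057 genes in all. No probe carried the symbol H19, which was not analysed here. The study asked about Dnmt2 (gene symbol Trdmt1), an enzyme that methylates cytosine in a few transfer RNAs, in blood formation. One sample was marrow labelled Dnmt2-/- and the other marrow labelled wild type, with 1 Illumina MouseWG-6 v2.0 bead array each. The labels give neither the strain nor the number of animals behind each RNA.

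Since each genotype had a single array, no difference below carries an error or a test, and all values compare this pair of arrays. Precision is limited by the number of arrays. At a detection p-value below 0.01, 43.2% of probes were detected on the array labelled Dnmt2-/- and 41.4% on the array labelled wild type. Sex-linked genes separated the arrays. Xist, the RNA of X chromosome inactivation, had signals of 92.8 intensity units (not detected) on the array labelled Dnmt2-/- and 823 on the array labelled wild type, so it was at least 38.3-fold lower on the array labelled Dnmt2-/-. Y-linked Eif2s3y had 467 and 89.8 (not detected) and was at least 16.7-fold higher. Genotype label and sex of the tissue therefore cannot be told apart in any value below. Trdmt1 gave 149 intensity units on the array labelled Dnmt2-/- and 112 on the array labelled wild type (log2 ratio 0.62), which goes against the label Dnmt2-/-. The position of its probe relative to the deletion is unknown, and a probe beyond the deletion would not check the label, so arrays are named by their labels throughout and every direction rests on those labels. Of 12 marrow blood cell marker genes named on the array all 12 were detected on both arrays, with a median log2 ratio of -0.09.

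Imprinted genes are read from only 1 parental copy because DNA methylation laid down in egg or sperm marks the copies differently. Many of them act on growth before and shortly after birth. As a broad pattern, paternally expressed members such as the growth factor gene Igf2 promote growth, while maternally expressed ones such as Igf2r, Cdkn1c and Grb10 restrain it. In mice several of these genes are highly active in the fetus and are turned down in most organs during the first weeks of life, and Dlk1, Igf2 and Cdkn1c have roles in blood stem cells and in the cells that surround them.

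Signals of Igf2, Grb10, Dlk1 and Mest were higher on the array labelled Dnmt2-/-, and those of Cdkn1c and Peg3 were close to equal. The probes of Igf2r lay on either side of equality (log2 ratios 0.26 and -0.09). By the brightest probe, the largest differences were those of Grb10 (1.58-fold) and Igf2 (1.54-fold), followed by Dlk1 (1.45-fold) and Mest (1.23-fold). Other detected probes gave 1.03-fold for Grb10, 1.94-fold for Dlk1 and up to 2.03-fold for Mest. The order depended on the probe. By the mean of detected probes Dlk1 was 1.68-fold, Igf2 and Mest 1.54-fold and Grb10 1.27-fold higher. Meg3 and Plagl1 were not detected on either array. Each ratio is the Dnmt2-/- value over the wild type value, from background-corrected, quantile-normalized log2 intensities of the gene's brightest probe. Medians of cartilage, skeletal muscle and osteoblast markers were also higher on the array labelled Dnmt2-/- (log2 ratios 1.48, 0.84 and 0.63). Of 8 osteoblast markers 6 were higher, while the brightest, Bglap2 and Bglap, were at -0.14 and -0.05. The part of such cells in the values of Igf2, Grb10, Dlk1 and Mest was not tested. In bulk RNA, more cells of a type and more RNA per cell cannot be told apart.

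RefSeq start-site windows of the 4 genes with the highest ratios are shown here, though not all windows of Igf2 and Mest. Each window runs 5′ to 3′ from 250 bases before to 50 bases after a transcription start (GRCm38.p6). The RefSeq table held 15 windows for 8 of the 10 genes, Cdkn1c and H19 being the others. Capitals mark TGCCGC on either strand, the letters recognised in methylated form by ZFP57, the zinc finger protein that protects imprints in the embryo.
Grb10 upstream start, chr11:12037371-12037670, minus strand: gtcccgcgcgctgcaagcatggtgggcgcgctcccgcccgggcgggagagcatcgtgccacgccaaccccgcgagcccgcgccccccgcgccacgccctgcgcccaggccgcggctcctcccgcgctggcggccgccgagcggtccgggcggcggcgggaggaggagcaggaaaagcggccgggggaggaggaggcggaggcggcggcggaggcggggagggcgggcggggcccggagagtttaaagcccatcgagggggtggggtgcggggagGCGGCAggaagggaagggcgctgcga
Grb10 downstream start, chr11:12027922-12028221, minus strand: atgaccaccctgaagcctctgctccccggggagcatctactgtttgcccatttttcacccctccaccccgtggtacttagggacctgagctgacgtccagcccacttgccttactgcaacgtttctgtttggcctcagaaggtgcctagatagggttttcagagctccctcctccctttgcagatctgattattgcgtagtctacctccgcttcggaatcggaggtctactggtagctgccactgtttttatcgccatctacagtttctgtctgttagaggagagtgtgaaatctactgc
Igf2 start with the motif, chr7:142661222-142661521, minus strand: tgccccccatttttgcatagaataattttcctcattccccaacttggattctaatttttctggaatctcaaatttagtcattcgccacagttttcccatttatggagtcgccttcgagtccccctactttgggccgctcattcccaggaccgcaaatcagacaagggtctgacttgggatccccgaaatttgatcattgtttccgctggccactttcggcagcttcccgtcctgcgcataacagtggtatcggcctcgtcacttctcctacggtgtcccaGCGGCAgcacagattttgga
Igf2 most downstream start, chr7:142657447-142657746, minus strand: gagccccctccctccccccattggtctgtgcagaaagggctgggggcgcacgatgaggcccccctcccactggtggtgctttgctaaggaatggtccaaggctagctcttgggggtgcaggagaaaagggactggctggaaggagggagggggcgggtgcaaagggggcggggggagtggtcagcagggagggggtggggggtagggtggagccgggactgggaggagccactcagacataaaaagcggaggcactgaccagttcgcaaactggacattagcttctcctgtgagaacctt
Dlk1, chr12:109452573-109452872, plus strand: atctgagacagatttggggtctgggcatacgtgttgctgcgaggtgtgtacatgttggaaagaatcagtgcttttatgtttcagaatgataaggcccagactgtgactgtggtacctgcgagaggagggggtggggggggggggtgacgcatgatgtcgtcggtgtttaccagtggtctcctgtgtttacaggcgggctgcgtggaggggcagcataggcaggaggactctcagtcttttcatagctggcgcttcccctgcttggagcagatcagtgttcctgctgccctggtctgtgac
Mest downstream start, chr6:30737800-30738099, plus strand: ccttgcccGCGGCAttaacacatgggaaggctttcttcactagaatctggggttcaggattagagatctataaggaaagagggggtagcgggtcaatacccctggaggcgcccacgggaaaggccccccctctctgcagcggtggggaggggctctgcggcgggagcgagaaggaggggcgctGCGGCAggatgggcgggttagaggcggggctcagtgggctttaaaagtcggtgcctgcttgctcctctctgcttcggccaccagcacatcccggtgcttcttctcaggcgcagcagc

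The windows differ in their content of the dinucleotide CG, the site of DNA methylation. The upstream Grb10 window holds 45 CG dinucleotides, more than all but 1.65% of the 32851 windows in the table, and the downstream Grb10 window holds 9. The Igf2 windows shown hold 14 and 7, the Dlk1 window 9 and the Mest window 17, against a median of 7 over all windows. TGCCGC lies at position 25 of the upstream Grb10 transcript and at position 31 of the Igf2 transcript, counted from the start as 1, and at 242 and 67 bases before the Mest start. It is present on either strand in windows of 5 of the 8 genes and in 11.6% of all windows. By window the count is 6 of 15, in which a pair of overlapping Mest windows holds the same matches. Meg3 and Plagl1, which were not detected in this marrow, have it as well. The letters GGGGCCCC, bound by the Plagl1 protein, occur in 1 member window, that of Peg3, and in 1.08% of all windows. A form of the CTCF motif 14 letters long occurs in 0 of the 15 and in 0.0365% of all windows, which says nothing of CTCF itself. No motif searched overlaps another in these windows, a match is a description and not a binding site, and the array does not show which start was used.

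Among maternally expressed genes, Igf2r encodes the receptor that carries IGF2 into lysosomes for destruction and also sorts lysosomal enzymes. Its brighter probe gave 320 intensity units on the array labelled Dnmt2-/- and 238 on the array labelled wild type, a log2 ratio of 0.26. Its second probe gave 278 and 245, a log2 ratio of -0.09 that turned to 0.16 with median scaling. With quantile scaling the probes thus lay on either side of equality. Over 3375 genes with several probes detected on both arrays, the SD between log2 ratios of probes of a gene was 0.29. Of all 9746 genes detected on both arrays, 21.6% had a higher ratio than that of Igf2r.

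Cdkn1c encodes a cyclin-dependent kinase inhibitor that stops cell division and keeps blood stem cells quiescent. Its only probe gave 1557 intensity units on the array labelled Dnmt2-/- and 1464 on the array labelled wild type. After normalization the log2 ratio was -0.02, and 94.9% of genes lay further from equality, although the sign turned with median scaling (0.02). The transcript was clearly detected on both arrays.

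Grb10 encodes an adaptor that binds the activated insulin and IGF1 receptors and dampens their signal, and its human and mouse forms are targets of mTORC1. Its brightest probe (ILMN_2518412) gave 1279.7 intensity units on the array labelled Dnmt2-/- and 752 on the array labelled wild type, a log2 ratio of 0.66, with 4.88% of genes higher. Its other probes did not show this difference. The second probe, which was designed on another cDNA sequence and lay just above background, gave 115 and 106 (log2 ratio 0.04), and the third was not detected on either array at 91.2 and 83.2. The difference therefore rests on 1 probe, and the mean of the detected probes gave a 1.27-fold difference.

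Meg3, a long noncoding RNA of the imprinted domain on chromosome 12 that also holds Dlk1, had 3 probes and none was detected at a p-value below 0.01. They gave 95.2, 92.4 and 92.3 intensity units on the array labelled Dnmt2-/- and 97.6, 91.3 and 90.6 on the array labelled wild type. These values lie around the array medians of 100.2 on the array labelled Dnmt2-/- and 95.1 on the array labelled wild type. The first probe had a detection p-value of 0.423 on the array labelled Dnmt2-/- and 0.0354 on the array labelled wild type. No level and no fold is given for Meg3.

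Among paternally expressed genes, Igf2 encodes insulin-like growth factor II, the main growth factor of the fetus. Its only probe (ILMN_2597769) gave 3615 intensity units on the array labelled Dnmt2-/- and 2310 on the array labelled wild type. The log2 ratio was 0.63 (1.54-fold), and 5.60% of genes had a higher one. It ranged from 1.47-fold to 1.54-fold over 8 alternatives, although relative to the median of all genes its log2 ratio was 0.45 with median scaling, below 1.5-fold. With a single probe, the mean of detected probes and the changes of detection filter could not alter it.

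**Figure D1:**
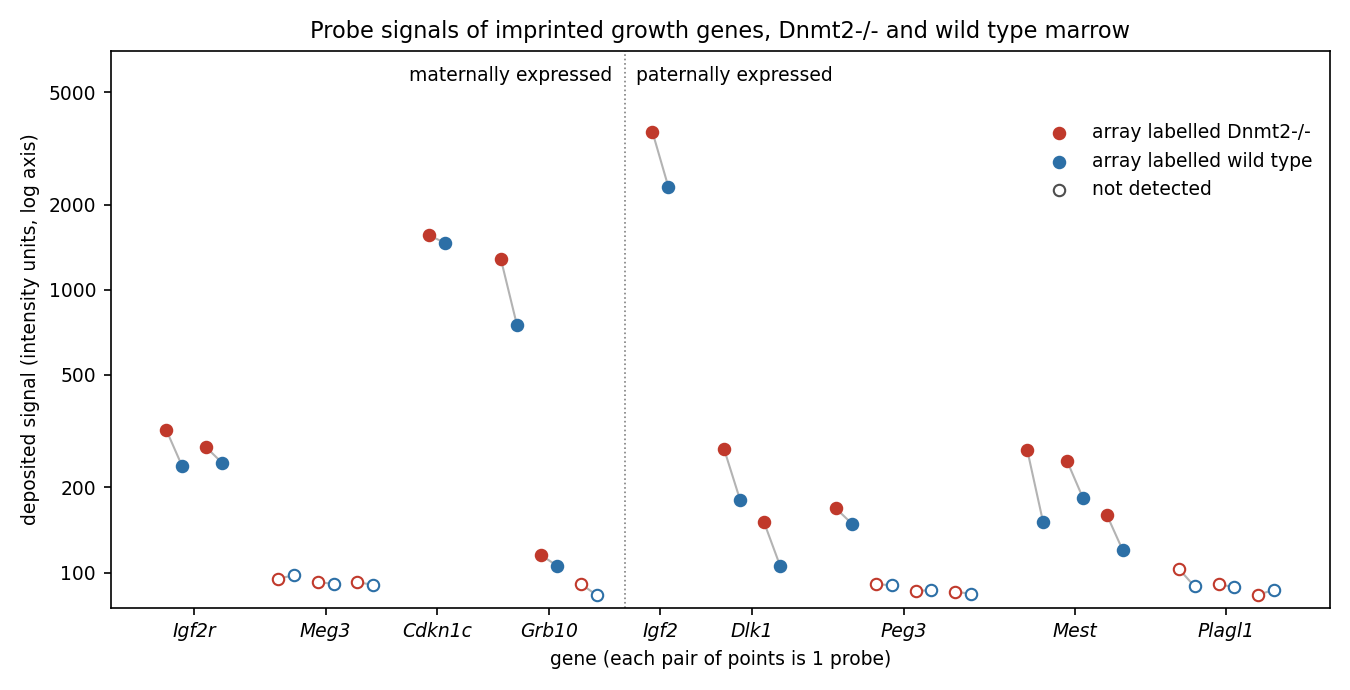
Deposited signal (intensity units, log axis) of every probe of the 9 genes with a probe, maternally expressed genes on the left and paternally expressed genes on the right. Each joined pair is 1 probe on the array labelled Dnmt2-/- (red, left) and the array labelled wild type (blue, right), and open points are not detected at a p-value below 0.01. Igf2 (3615 and 2310) and the brightest Grb10 probe (1279.7 and 752) stand apart between the arrays, while all Meg3 and Plagl1 points are open and lie near 100.

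Dlk1 encodes a membrane protein of the Notch ligand family that holds back differentiation of fat and other mesenchymal precursors. Its brighter probe gave 272 intensity units on the array labelled Dnmt2-/- and 180 on the array labelled wild type, a log2 ratio of 0.54. Its dimmer probe gave 150.5 and 106, a log2 ratio of 0.96 (1.94-fold). Both probes of Dlk1 were higher on the array labelled Dnmt2-/-. Of all genes, 7.91% had a higher ratio than its brighter probe.

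Mest encodes a membrane enzyme of the alpha/beta hydrolase fold that enlarges fat cells. All 3 of its probes were detected on both arrays and all 3 were higher on the array labelled Dnmt2-/-. They gave 272, 248 and 159.7 intensity units there and 151, 183 and 119.6 on the array labelled wild type. The log2 ratios were 1.02, 0.30 and 0.55 in the same probe order. The mean over probes was 1.54-fold, against 1.23-fold for the probe with the highest mean, so the size but not the direction depended on the probe.

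Peg3 encodes a large zinc finger protein that represses transcription and marks stem and progenitor cells in several tissues. Of its 4 probes, 1 was detected, with 169 intensity units on the array labelled Dnmt2-/- and 149 on the array labelled wild type. The log2 ratio was -0.05, and its sign turned with median scaling (0.21) and in the authors' processed values (0.01). The remaining Peg3 probes lay between 85.5 and 90.9 on the array labelled Dnmt2-/- and between 84.0 and 90.2 on the array labelled wild type, none of them detected.

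Plagl1 encodes a zinc finger transcription factor that regulates a network of imprinted genes in mice, Igf2 and Cdkn1c among them. Its 3 probes gave 103, 90.9 and 83.5 intensity units on the array labelled Dnmt2-/- and 89.3, 88.7 and 86.9 on the array labelled wild type. The first had a detection p-value of 0.0316 on the array labelled Dnmt2-/- and 0.645 on the array labelled wild type. No probe of Plagl1 passed a p-value below 0.01 on either array.

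By probe, 12 of the 22 member probes were detected on both arrays and the other 10 on neither. The deposited signal of all 12 was higher on the array labelled Dnmt2-/-, whose median signal over all probes was also higher. After quantile normalization 9 of the 12 probes were higher and 3 lower, while 12 were higher with median scaling and 10 in the authors' processed values. After quantile normalization 4 were higher by at least 1.5-fold, a size reached upward by 5.94% of all 17096 probes detected on both arrays. No member probe was lower by that much, against 5.26% of all probes. By gene, 7 of 9 genes with a probe were detected on both arrays (51.1% of all genes were). Of the 7, 5 were higher on the array labelled Dnmt2-/-, against 48.3% of all genes. This count was 7 with median scaling and 6 in the authors' processed values. At least 1.5-fold higher were 2 of the 7 (Grb10 and Igf2), against a background of 6.61%, and lower by that much were 0 of 7, against 5.16%. With median scaling these backgrounds were 13.8% higher and 1.84% lower, with 3 members higher and 0 lower. With 7 genes, 2 calls are too few to read as more than a description.

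The median log2 ratio of the 7 genes was 0.30, against -0.02 over all genes. It was 0.26 for the 3 maternally expressed genes (Igf2r, Cdkn1c and Grb10) and 0.42 for the 4 paternally expressed genes (Igf2, Dlk1, Peg3 and Mest). The ranges overlapped, from -0.02 to 0.66 in the maternally expressed genes and from -0.05 to 0.63 in the paternally expressed genes. Each class held 1 gene past 1.5-fold and 1 gene near equality. Both calls were lost in the authors' processed values, where Grb10 was 1.49-fold and Igf2 1.47-fold higher.

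**Figure D2:**
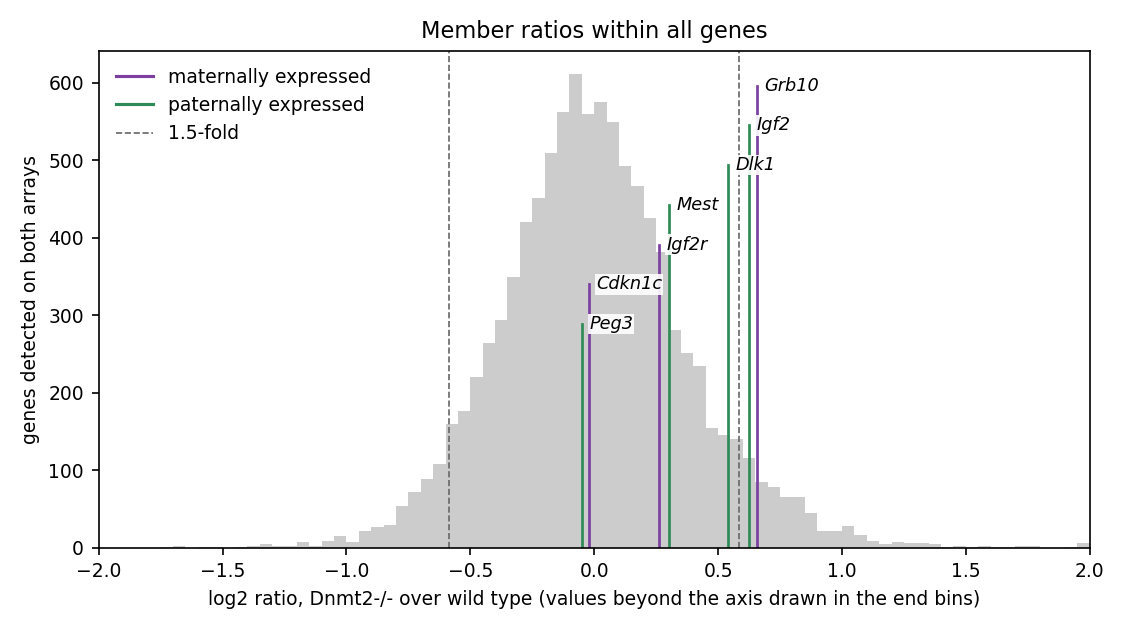
Number of genes (y axis) by log2 ratio of Dnmt2-/- over wild type (x axis, 0.05 wide bins) for the 9746 genes detected on both arrays, in grey. Vertical lines mark the 7 detected members, purple for maternally and green for paternally expressed genes, and dashed lines mark 1.5-fold. Peg3 and Cdkn1c lie at the centre, where their sign turns with scaling, and Dlk1, Igf2 and Grb10 lie at the upper flank.

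The differences of Igf2, Grb10, Dlk1 and Mest kept their direction in each alternative setting that could change them. Neither change of the detection filter could, nor could averaging probes for Igf2, which has 1. Dlk1 ranged from 1.28-fold to 1.75-fold and passed 1.5-fold with median scaling (1.75-fold) and with the mean of its probes (1.68-fold). Median scaling moved the median of all genes to 0.14, against -0.02 with quantile scaling. Relative to that median, the log2 ratios with median scaling were 0.61 for Grb10, 0.66 for Dlk1, 0.45 for Igf2, 0.43 for Mest, 0.35 for Igf2r, 0.07 for Peg3 and -0.12 for Cdkn1c.

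**Figure D3:**
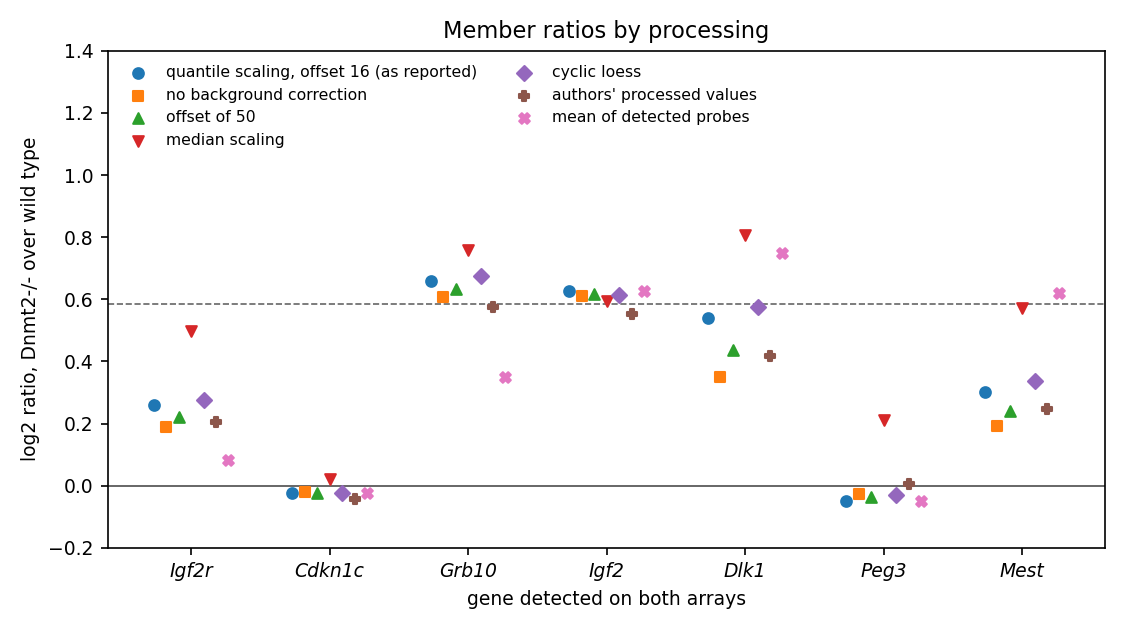
Log2 ratio of Dnmt2-/- over wild type (y axis) of the 7 members detected on both arrays (x axis) under the processing reported and 6 alternatives, 1 symbol each. The dashed line marks 1.5-fold. Igf2 varies little, Dlk1 and Mest vary with the scaling and the choice of probe, Grb10 drops to 0.35 when its probes are averaged, and Cdkn1c and Peg3 stay near 0 except for Peg3 with median scaling (0.21).

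Further imprinted genes were set beside the members. The array does not show which parental copy was read, so the class names describe the genes and not their state in this marrow. Of 22 further maternally expressed genes named on the array, 9 were detected on both arrays (51.1% of all genes were). Of these, 6 had higher and 3 had lower values on the array labelled Dnmt2-/-, with a median log2 ratio of 0.35. Of all genes detected on both arrays, 48.3% were higher. Dcn, which encodes the collagen-binding proteoglycan decorin and is imprinted in the mouse placenta, had 4895 intensity units on the array labelled Dnmt2-/- and 2949 on the array labelled wild type (1.65-fold higher, and higher in all 3 probes). Ube3a, a ubiquitin ligase gene imprinted in neurons, was 1.51-fold higher at 165 and 121 units. Its log2 ratio was as low as 0.27 over the background and scaling settings, the authors' processed values included, so that its call was lost in some. Trappc9, which encodes a vesicle trafficking protein, was 1.57-fold lower at 149.8 and 164 units, with log2 ratios from -0.65 to -0.33 over those settings. Its 2 probes were at -0.65 and -0.25, so only the brightest passed 1.5-fold. Ascl2, a transcription factor gene of the distal chromosome 7 domain, passed detection only on the array labelled wild type and was at least 1.62-fold lower on the array labelled Dnmt2-/-, at 95.3 and 106 units, near background, and its log2 bound shrank to -0.19 over those settings.

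Of 21 further paternally expressed genes named on the array, 6 were detected on both arrays and all 6 were higher on the array labelled Dnmt2-/- by their brightest probe (48.3% of all genes were), with log2 ratios from 0.02 to 0.81 and a median of 0.17. Impact, a regulator of translation, turned with the probe, at 0.23 and -0.71. A further 5 passed detection only on the array labelled Dnmt2-/- and 0 only on the array labelled wild type, against 1026 and 666 of all genes. Of the 5, Rtl1 had a measured log2 ratio of -0.16 near background. Kcnq1ot1, the noncoding RNA that silences Cdkn1c and its neighbours on the paternal copy, gave 157 intensity units on the array labelled Dnmt2-/- and 111 on the array labelled wild type (1.76-fold higher), beside the near-equal Cdkn1c. Its log2 ratio ran from 0.33 to 1.03 over the background and scaling settings, so the 1.5-fold call was lost in some. Slc38a4, an amino acid transporter gene, was at least 2.04-fold higher at 128 and 96.0 units, and Rasgrf1, a Ras activator gene, at least 1.98-fold higher at 125 and 87.3 units. Both lay near background, and over those settings their log2 bounds were as low as 0.30 for Slc38a4 and 0.29 for Rasgrf1.

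Igf2 was set beside the other genes through which it acts. Of 14 IGF ligand, receptor and binding protein genes detected on both arrays, Igf2 and Igf2r among them, 12 had a higher value on the array labelled Dnmt2-/-, against 48.3% of all genes. In 3 the difference reached 1.5-fold upward, against 6.61% of all genes, and in 0 was it reached downward, against 5.16%. The median log2 ratio was 0.22. Igf1, the other ligand gene and the one that drives growth after birth, was lower, at 276 intensity units on the array labelled Dnmt2-/- and 305 on the array labelled wild type (log2 ratio -0.53). The receptor gene Insr gave a log2 ratio of 0.52, and the probes of Igf1r lay on either side of equality at 0.17 and -0.20. Igfbp3, the main carrier of IGFs in serum, was 1.59-fold higher, and Stc1, whose product inhibits the protease that frees IGFs from their binding proteins, was 2.55-fold higher, both at signals under 200 units. Over the background and scaling settings the log2 ratio was as low as 0.35 for Igfbp3 and 0.49 for Stc1, below 1.5-fold in both. Igfbp5 was at 0.34 in log2 ratio, and 2 genes lay near equality, Igfbp4 with probes at -0.06 and 0.05 and M6pr, the second receptor of mannose 6-phosphate beside Igf2r, at 0.01.

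Grb10 acts among adaptors and kinases below these receptors. Of 11 such genes detected on both arrays, Grb10 included, 4 were higher (48.3% of all genes were) and 7 were lower, with a median of -0.05. Pik3r1, the regulatory subunit of PI3 kinase, had 1754 intensity units on the array labelled Dnmt2-/- and 1058 on the array labelled wild type (1.56-fold higher), Grb7, of the same adaptor family as Grb10, was 1.51-fold higher, and Pik3ca, the catalytic subunit, was 1.58-fold lower near background. The log2 ratios of these 3 genes fell short of 1.5-fold in some background and scaling settings, at 0.56 for Pik3r1, 0.25 for Grb7 and -0.21 for Pik3ca. Irs2, a docking protein of the receptors, was at -0.41. Cdkn1a, which belongs to the same inhibitor family as Cdkn1c, was 1.66-fold higher at 389 and 226 units (a log2 ratio as low as 0.54 over those settings), while Cdkn1b, the remaining member of that family, was at -0.29 near background, and the median of 12 cell cycle inhibitor and partner genes, Cdkn1c included, was -0.03 (0.12 with median scaling). Among Notch pathway genes, Notch1 was at 0.48, Hey1 at 0.55, Hes1 at 0.37 and Notch3 at -0.31. Of 8 detected genes (Dlk1 included) 6 were higher, against 48.3% of all genes, and 0 by 1.5-fold, with a median of 0.32. Over the background and scaling settings Notch1 reached 0.71, Hey1 0.80 and Hes1 0.63, past 1.5-fold. Among those settings, median scaling moved the median of all genes to 0.14. It put 13.8% of all genes at least 1.5-fold higher, against 6.61% with quantile scaling.

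**Figure D4:**
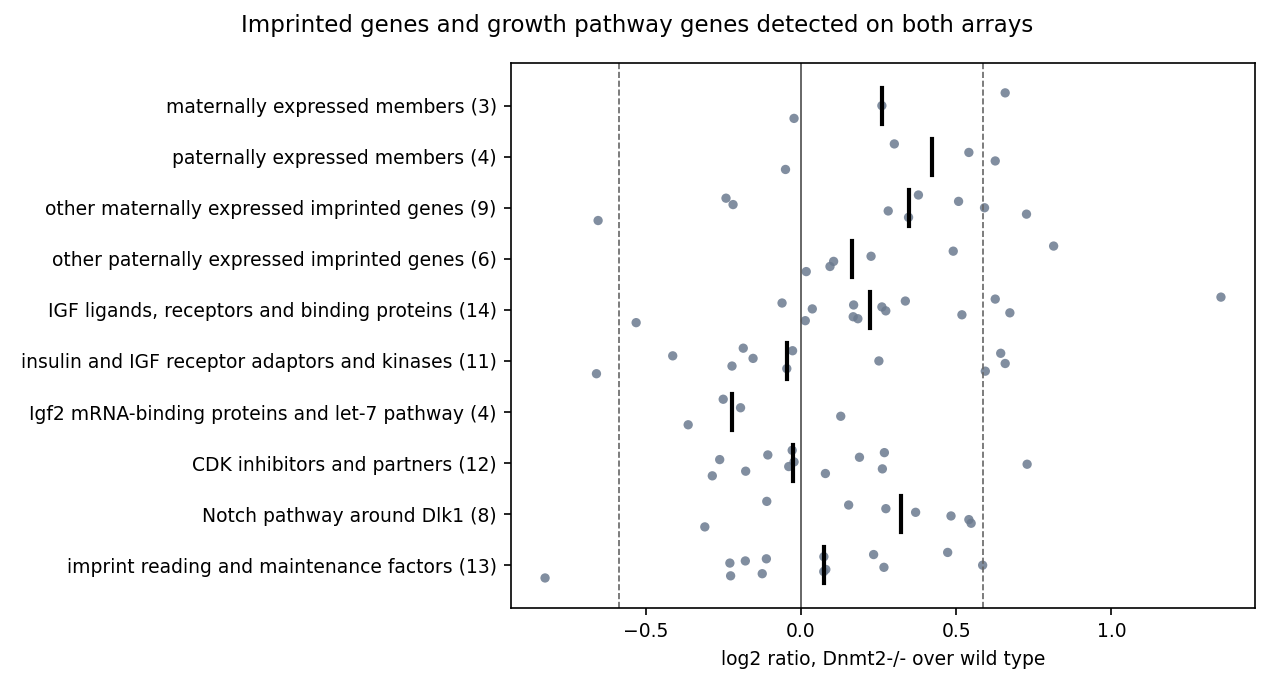
Log2 ratio of Dnmt2-/- over wild type (x axis) of each gene detected on both arrays, by gene list (rows, number of genes in brackets). Points are genes, with vertical offsets for legibility alone, black bars are list medians, and dashed lines mark 1.5-fold. The medians run from -0.22 for the Igf2 mRNA-binding list to 0.42 for the paternally expressed members.

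Markers of connective tissue, cartilage and muscle also differed between the arrays, and expression of the members in those tissues was not measured. Of 12 cartilage markers, 7 were detected on both arrays and all 7 were higher on the array labelled Dnmt2-/- by at least 1.5-fold by their brightest probe, although another probe of Acan was at -0.17. The median log2 ratio was 1.48, with a summed corrected signal of 2449 on the array labelled Dnmt2-/- and 663 on the array labelled wild type. A further 4 passed detection only on the array labelled Dnmt2-/-. All 11 skeletal muscle markers named on the array were higher, 9 of them by at least 1.5-fold, with a median of 0.84 and sums of 14234 and 7418. Of 8 osteoblast markers 5 were at least 1.5-fold higher and 2 were lower (Bglap and Bglap2), with a median of 0.63 and sums of 32354 and 28558. Of 7 fibroblast and stroma markers 2 were at least 1.5-fold higher, with a median of 0.26 and sums of 14640 and 13426. Of all genes detected on both arrays, 48.3% were higher by any amount and 6.61% by at least 1.5-fold. The highest in each list were Col2a1 (3.90-fold), Mb (3.86-fold), Ibsp (2.55-fold) and Lum (2.46-fold), and the lowest were Col11a1 (at least 1.26-fold), Myog (log2 ratio 0.16), Bglap2 (-0.14) and Thy1 (-0.41). Endothelial markers had a median of 0.22 over 8 genes, from -0.66 for Eng to 0.42 for Cdh5, and sums of 3678 and 3526. Marrow blood cell markers ran from -0.26 for Camp to 0.13 for S100a8, none past 1.5-fold, with sums of 133200 and 136393. Of 8 hepatocyte markers 7 were detected on neither array, and Apoa2 only on the array labelled wild type, at 96.3 units on the array labelled Dnmt2-/- and 99.5 on the array labelled wild type.

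**Figure D5:**
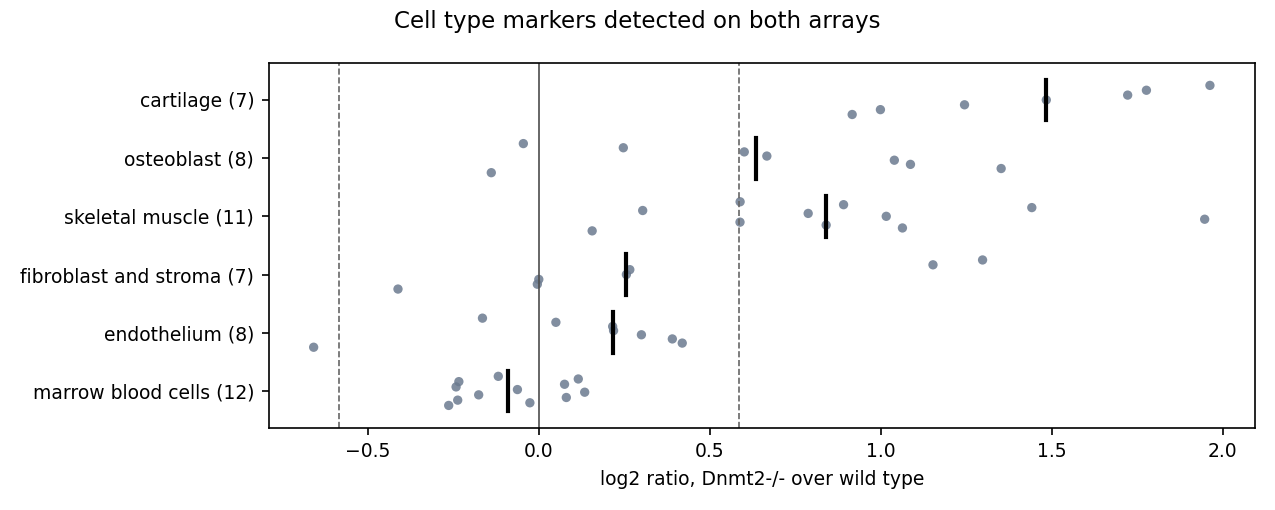
Log2 ratio of Dnmt2-/- over wild type (x axis) of each cell type marker detected on both arrays, by cell type (rows, number of genes in brackets). Black bars are medians and dashed lines mark 1.5-fold. Cartilage (median 1.48) and muscle (0.84) markers lie to the right, as do most osteoblast markers (0.63), and marrow blood cell markers (median -0.09) lie around 0.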

How the data were processed

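RNA was extracted with Trizol and amplified to biotin-labelled cRNA, per the labels' protocols. The authors deposited, for each probe and array, a linear signal intensity before normalization and a detection p-value. A second deposited table holds the authors' normalized intensities, linear, by a method that no source used here states. It served as an alternative, with 1071 probes blank. Background was corrected with normexp in limma 3.58.1 (R 4.3.3), using the detection p-values and an offset of 16, then log2 values were quantile normalized. The offset shrinks folds of dim genes. The brightest probe stood for each gene, detected at a p-value below 0.01. A gene detected on 1 array only gets a lower bound, against the higher of its own value and the lowest value among detected probes of the dimmer array. Members and 17 gene lists were chosen with earlier results of these data known. Named were all members, genes past 1.5-fold in each list (at most 4 in each direction, otherwise the extremes), the extremes of marker lists, and Trdmt1, Xist and Eif2s3y; other list genes were named after their values were seen. The alternatives were no background correction, an offset of 50, median scaling, cyclic loess, the authors' values, the mean of detected probes, a detection p-value below 0.05 and no filter. Ranges over the background and scaling settings also take in the authors' values. The background correction and quantile normalization reported were tested on simulated arrays. Probe names came from the platform annotation (34885 probes with 1 symbol, 18 with several, 10378 unnamed), and start-site windows from RefSeq. The deposited tables name no genome build, and the start-site windows are on GRCm38.p6.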

Additional observations from a re-analysis of the deposited data

How the results depend on the processing

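No paired analysis was possible because each genotype had 1 array, and for the same reason no array could be left out. With 1 array per genotype no value has an error, so a value counts here as moved when it changed by more than 0.29, the SD between probes of a gene on the log2 scale. Over 8 alternatives, Igf2r, Cdkn1c, Igf2, Dlk1 and Peg3 moved by less than that. Changes of the detection filter could not move these values, nor could averaging for genes with 1 detected probe. With the mean of detected probes Grb10 gave 0.35 and Mest 0.62. The count of members at least 1.5-fold higher was 0 in the authors' processed values and 2 or 3 in the other settings, and the count lower by that much was 0 in all. Without a filter on dim probes the median of other maternally expressed imprinted genes was 0.0172 and that of cartilage markers 1.12. The cartilage median was 0.66 without background correction, 0.95 with an offset of 50 and 0.78 in the authors' processed values. The cause of these shifts was not tested. Signal over background limits Meg3, Plagl1 and the dim probes of Peg3 and Grb10.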

Other observations

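Of 13 genes for factors that read or keep imprints, detected on both arrays, 7 had higher and 6 had lower values on the array labelled Dnmt2-/-. Their median log2 ratio was 0.07, and 48.3% of all genes were higher. The maintenance methyltransferase gene Dnmt1 had 1045 intensity units on the array labelled Dnmt2-/- and 1047 on the array labelled wild type (log2 ratio -0.18), its partner Uhrf1 was at 0.07 (-0.01 to 0.07 over the background and scaling settings), the insulator protein gene Ctcf at -0.12 (-0.12 to 0.04) and Trim28, which ZFP57 recruits to imprints, at -0.11. Ezh2, the Polycomb methyltransferase gene, gave 675 and 409.6 units (log2 ratio 0.59, and 0.50 to 0.76 over those settings), and Tet1, which oxidises methylated cytosine, was 1.77-fold lower near background at 109 and 121 units, with a log2 ratio of -0.83 to -0.27 over those settings. Among genes that act on the Igf2 messenger RNA, Igf2bp3 had 767 units on the array labelled Dnmt2-/- and 756 on the array labelled wild type (log2 ratio -0.19, and -0.56 to 0.40 over 5 probes). Lin28a, which blocks let-7 maturation, had probes at -0.36 and 0.31 near background, and Dicer1 was at 0.13 and 0.51.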
